A study of Sus scrofa with 24 samples.

Results

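Liver RNAseq data were compared between pigs given testosterone esters and untreated pigs, in animals without testes. The members were the 6 pigs labelled as given Sustanon (castrated boars 1, 2 and 3 and sows 4, 5 and 6) and the 6 labelled as untreated (castrated boars 13, 14 and 15 and sows 16, 17 and 18), 12 of the 24 libraries of the series. They were chosen by treatment and sex labels alone. Sustanon is a mixture of testosterone esters that release testosterone slowly from the site of injection, and it was given at 4 mg/kg by repeated intramuscular injection. The 5 castrated boars and sows given Myodin, a nandrolone ester preparation, at 5 mg/kg and the 4 uncastrated boars with or without Sustanon were used for comparison. All pigs were hybrids of Large White, Landrace and Duroc, each pig gave 1 library, and no library pooled animals. The study's methods place each treatment in its own pen and the controls in another room, and no sham injection is given for them, so that treatment, housing and handling cannot be told apart.

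Testosterone acts through a nuclear hormone receptor, a transcription factor that binds its hormone in the cytoplasm and moves to the nucleus. Part of it is converted by aromatase to oestradiol, which acts through the oestrogen receptors. The liver is both a target of sex steroids and the main organ that clears them, by oxidation and reduction at the steroid ring and by coupling to sulfate or glucuronic acid. Many liver enzymes of drug, steroid and lipid metabolism differ between the sexes in mammals, partly through the pattern of growth hormone release from the pituitary.

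Counts summed to between 9492860 and 13692975 reads per library, with medians of 10857171 for Sustanon and 9893916.5 for controls. The 10 most abundant genes took 28.6% ± 2.53 (SD, n = 6) of a library with Sustanon and 27.6% ± 3.75 (SD, n = 6) in controls. In 3 control libraries the Y-linked gene EIF1AY went against the labelled sex. It had 1 count in the library labelled control castrated boar 15, 476 in the library labelled control sow 16 and 434 in the library labelled control sow 18, against 379 to 539 in the other castrated boars and 0 to 3 in the other sows. The header of the count column of Sustanon sow 6 carries the covariate code of the castrated Sustanon boars, while its label is that of a sow and its EIF1AY count was among those of the sows. All libraries were kept under their labels, and results are also given without the 3 controls. Tissue identity was checked by marker genes, and albumin (ALB) stood between 75100 and 157000 TPM (a share of transcripts corrected for their length) in all 12 libraries.

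Between treated and control pigs, 164 of 8138 tested genes (2.02%) differed in the liver of castrated boars and sows. A gene was called when its adjusted p in edgeR's quasi-likelihood test was under 0.05 and its level changed at least 2-fold (an absolute log2 fold change of 1). Of the called genes 108 (1.33%) were higher and 56 (0.688%) were lower with Sustanon. Before the fold threshold 480 genes (5.9%) passed, and 1656 (20.3%) had an unadjusted p under 0.05. Among the called genes 21 higher and 13 lower ones changed by at least 2 on the log2 scale. The median log2 fold change over all tested genes was 0.01 after the libraries were scaled, a step that centres most genes near 0. In 276 genes (3.39%) the 2 groups of 6 pigs did not overlap, 178 (2.19%) of them higher and 98 (1.2%) lower with Sustanon, and 97 of the 164 called genes were among these. Without the 3 controls whose Y-linked counts went against the label, 54 genes were called, 49 of them among the 164, and all 164 kept their direction. That fit had 3 controls in place of 6. No setting that left out a single library moved the number of called genes outside 143 to 209. Pigs were separate animals, so that p-values measure the spread between pigs in these pens.

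**Figure D1:**
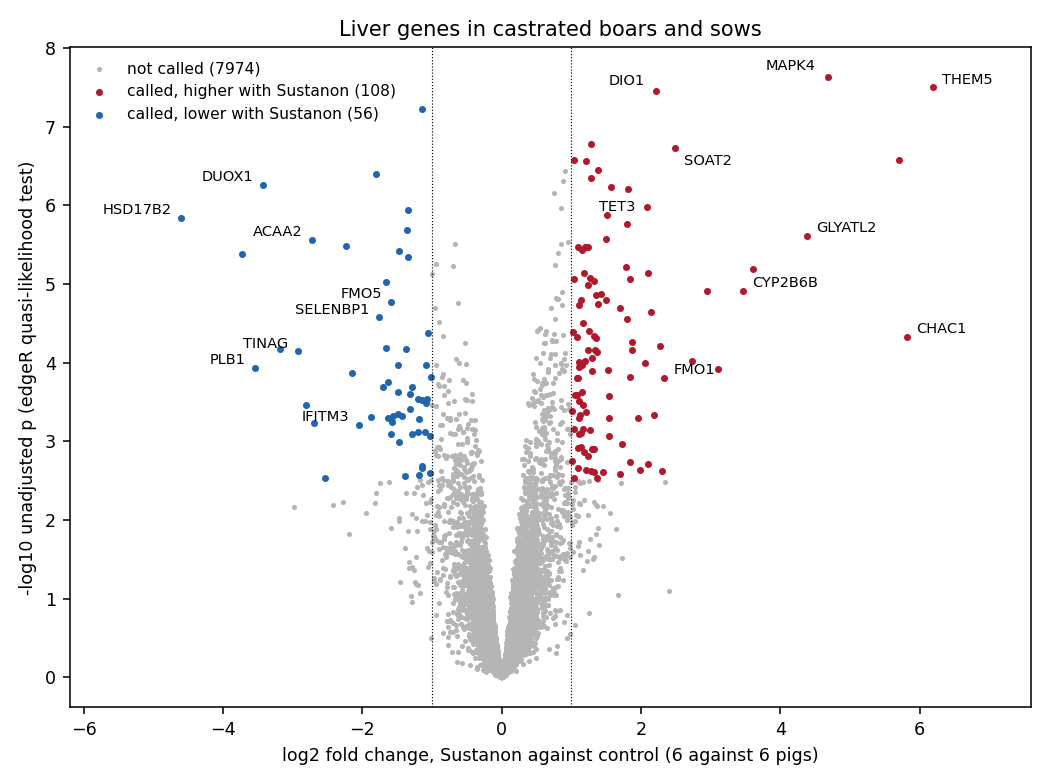
Each point is 1 of 8138 tested genes, with the log2 fold change of Sustanon against control on the x axis and -log10 of the unadjusted p on the y axis. The 108 called higher genes are red, the 56 called lower ones blue and the others grey, and THEM5, MAPK4 and DIO1 lie at the upper right.

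Among the genes with the largest increases, several were close to silent in the livers of untreated animals. THEM5, an acyl-CoA thioesterase of mitochondria, lies on chromosome 4 (4:97319579-97358602, Sscrofa11.1). It had 0 to 4 counts in the 6 controls and 33 to 213 counts with Sustanon. In CPM (its share of all counted reads, scaled by TMM) it stood at 0, 0.103 and 0.276 (lowest, median, highest) in controls and at 3.53, 8.34 and 17.4 with Sustanon, a log2 fold change of 6.18 ± 0.58 (SE, adjusted p = 9.5e-05). Every treated pig was above every control. MAPK4, an atypical mitogen-activated protein kinase (1:100107429-100291594), had 1 to 4 counts per control library. Its CPM rose from 0.2 (range 0.11 to 0.396) to 4.02 (range 3.47 to 10.1), a log2 fold change of 4.68 ± 0.43 (adjusted p = 9.5e-05), again with no overlap.

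GLYATL2, a member of the glycine N-acyltransferase family that couples acyl groups to glycine (2:12280093-12337509), stood at 0.181, 0.256 and 0.309 CPM in controls and 1.46, 4.77 and 13.7 CPM with Sustanon. The log2 fold change was 4.38 ± 0.58 (adjusted p = 0.000774). All treated pigs were above all controls, with castrated boars 1 and 3 lowest among the treated. CHAC1, an enzyme that breaks down glutathione and a known target of the amino acid and endoplasmic reticulum stress response (1:130360510-130363332), had 0 to 5 counts per control library. It reached 1.2, 7.32 and 33.9 CPM with Sustanon, so that the treated pigs differed widely among themselves, and the log2 fold change was 5.81 ± 1.01 (adjusted p = 0.00417). With so few reads in controls, the size of the change of these 4 genes is less certain than its direction.

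The real-time PCR primers of the study, forward then reverse, are shown for the panel genes MAPK4 and GLYATL2, which rose, and PLB1 and TINAG, which fell, because they define the transcript that was followed in each case.
MAPK4 forward: accttggtgggcgtttca
MAPK4 reverse: agcccattgacgccaaag
GLYATL2 forward: ggcatgcccccaggtta
GLYATL2 reverse: ctcttggcaaccttggatctg
PLB1 forward: gcaggccagtgttttctgtaact
PLB1 reverse: tccaacctggccagctctt
TINAG forward: aaaactgcaattcctgcacatg
TINAG reverse: ggcatacgtgctgggaaca

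DIO1, the deiodinase that converts thyroxine to its active form (6:158376744-158392745), rose in every treated pig. It stood at 25.8, 46.6 and 55.1 CPM in controls and at 162, 187 and 301 CPM with Sustanon, a log2 fold change of 2.22 ± 0.21 (adjusted p = 9.5e-05). SOAT2, which esterifies cholesterol for storage and lipoprotein assembly (5:18358941-18371262), rose from 19.1 CPM (range 12.2 to 25.4) to 95.7 CPM (range 68.8 to 202), a log2 fold change of 2.48 ± 0.27 (adjusted p = 0.000249). Neither gene had overlapping groups. DUSP2, a phosphatase of MAP kinases (3:47052443-47054816), rose by 2.28 ± 0.41 on the log2 scale (adjusted p = 0.00488) with no overlap, from 2.31 to 6 CPM in controls and 6.31 to 48.5 CPM with Sustanon.

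Other large increases had overlapping groups. The cytochrome P450 gene listed as CYP2B6B stood at 4.85, 9.94 and 31.3 CPM in controls and at 23.6, 139 and 244 CPM with Sustanon, a log2 fold change of 3.46 ± 0.53 (adjusted p = 0.00178). Castrated boar 3 alone among the treated pigs lay below the highest control, sow 16. FMO1, a flavin-containing monooxygenase that oxidises nitrogen and sulfur compounds (9:63860957-63895086), stood at 411, 810 and 1120 CPM in controls and 762, 3920 and 8250 CPM with Sustanon. Its log2 fold change was 2.33 ± 0.46 (adjusted p = 0.00825), and castrated boar 3 was the treated pig within the control range. CARMIL3, a regulator of actin filament ends (3.11 ± 0.59, adjusted p = 0.00704), and KIAA0319, a membrane protein best known from the nervous system (2.73 ± 0.51, adjusted p = 0.00644), each had 1 treated pig in the control range. PNPLA3, a lipid droplet protein of hepatocytes, was called at an adjusted p of 0.0446 with a log2 fold change of 2.30 ± 0.63. This call was kept in 4 of 12 fits that left out 1 library (Sustanon castrated boars 1 and 3, sows 4 and 5) and lost in the other 8, at adjusted p up to 0.0994. Without Sustanon sow 6, which reached 33.1 CPM against 1.8 to 6.11 CPM in the other treated pigs, the log2 fold change was 1.17.

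Among the called genes with a symbol and a mean log2 CPM of at least 1, HSD17B2 showed the largest fall. This enzyme inactivates testosterone and oestradiol by oxidation (6:6296429-6360434). It was at 230, 352 and 412 CPM in controls and at 2.69, 6.59 and 34.5 CPM with Sustanon, a log2 fold change of -4.60 ± 0.59 (adjusted p = 0.000512). Every treated pig was below every control, with castrated boar 3 (34.5 CPM) and sow 4 (29.6 CPM) the least reduced. Read counts over the 6 libraries summed to 21893 in controls and 893 with Sustanon.

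ACAA2, the thiolase of the last step of mitochondrial fatty acid oxidation (1:99284467-99310759), fell from 1010 CPM (range 709 to 1430) to 172 CPM (range 35.9 to 279), a log2 fold change of -2.71 ± 0.37 (adjusted p = 0.000795). The groups did not overlap. SELENBP1, a methanethiol oxidase (4:97860925-97894007), stood at 69.6 to 83 CPM in 5 treated pigs, 218 CPM in sow 4 and 233 to 471 CPM in controls, a log2 fold change of -1.76 ± 0.29 (adjusted p = 0.00292).

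PLB1, a phospholipase of the brush border (3:110605923-110741236), was at 0.206, 7.59 and 15.6 CPM in controls and 0.172, 0.643 and 1.39 CPM with Sustanon, a log2 fold change of -3.54 ± 0.68 (adjusted p = 0.00699). The control at 0.206 CPM was the library labelled castrated boar 15, one of the 3 at odds with their label. The other 5 controls, at 5.44 to 15.6 CPM, were above all treated pigs. TINAG, a basement membrane glycoprotein (7:26448612-26522993), fell from 5.04 CPM (range 2.17 to 13.4) to 0.805 CPM (range 0 to 1.61), with no overlap (log2 fold change -2.93 ± 0.53, adjusted p = 0.00537). DUOX1, an oxidase that produces hydrogen peroxide (1:126572533-126603084), fell from 2.85 CPM (range 2.57 to 4.41) to 0.308 CPM (range 0 to 0.538), likewise without overlap (log2 fold change -3.43 ± 0.40, adjusted p = 0.000295).

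Further decreases were found in the sulfotransferase listed as SULT1A3 (3:18351205-18354653; 55.7 to 227 CPM in controls, 3.75 to 51.8 CPM with Sustanon, log2 fold change -2.69 ± 0.61, adjusted p = 0.0179) and in SLC27A6, a fatty acid carrier (-1.70 ± 0.35, adjusted p = 0.00977). Neither had overlapping groups. Carbonic anhydrase CA3 (-2.81 ± 0.60, adjusted p = 0.0131), the metallothionein MT3 (-3.19 ± 0.58, adjusted p = 0.00517) and TSKS, a kinase substrate known from the testis (-1.87 ± 0.42, adjusted p = 0.0163), each had 1 treated pig in the control range. MT3 and TSKS were low in all libraries, at no more than 7.52 CPM.

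Without the 3 controls at odds with their label, THEM5, MAPK4, GLYATL2, CYP2B6B, SOAT2, DIO1, HSD17B2, PLB1, TINAG, ACAA2 and DUOX1 were still called, with adjusted p in edgeR's quasi-likelihood test from 0.00952 for DIO1 to 0.0416 for GLYATL2. CHAC1 (adjusted p = 0.0649), SELENBP1 (0.0529), FMO1 (0.104) and PNPLA3 (0.242) were not. Their log2 fold changes in that fit were 7.31, -1.73, 2.31 and 2.42. CARMIL3, KIAA0319, DUSP2, MT3, CA3, SULT1A3, TSKS and SLC27A6 also missed the threshold there, at adjusted p from 0.0785 to 0.124. How reads shared by near relatives were counted is not given in the sources used here, so that CYP2B6B, SULT1A3, GLYATL2, FMO1 and DHRS4 carry that uncertainty.

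**Figure D2:**
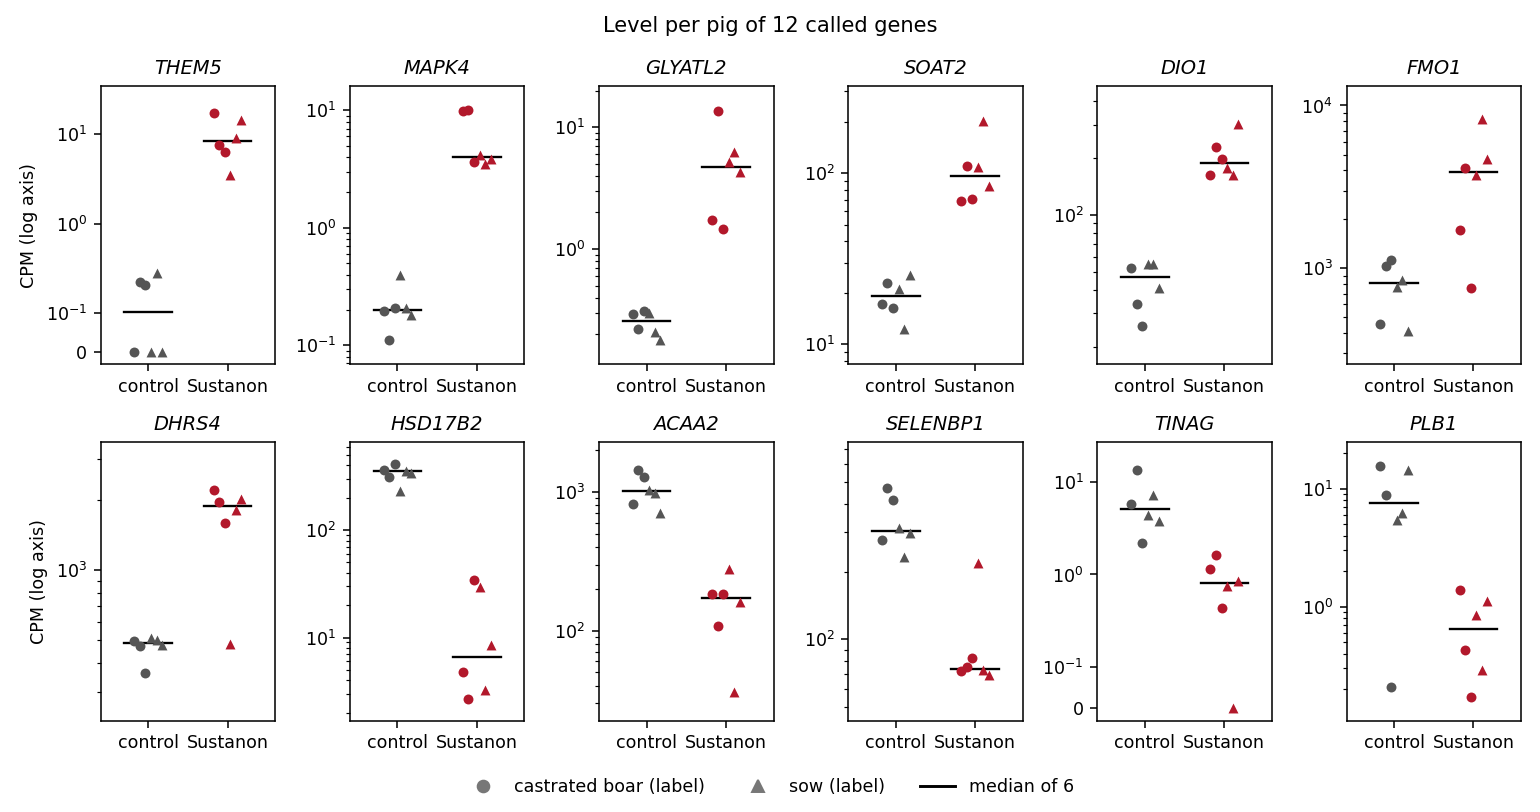
Each point is the CPM of 1 pig on a log axis (linear below 0.1 CPM, where THEM5 and TINAG reach 0), with circles for castrated boars and triangles for sows as labelled, 6 controls in grey and 6 Sustanon-treated pigs in red, and bars at the medians. The groups are apart for THEM5, MAPK4, GLYATL2, SOAT2, DIO1, HSD17B2, ACAA2, SELENBP1 and TINAG, and 1 pig crosses over for FMO1, DHRS4 and PLB1.

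**Figure D3:**
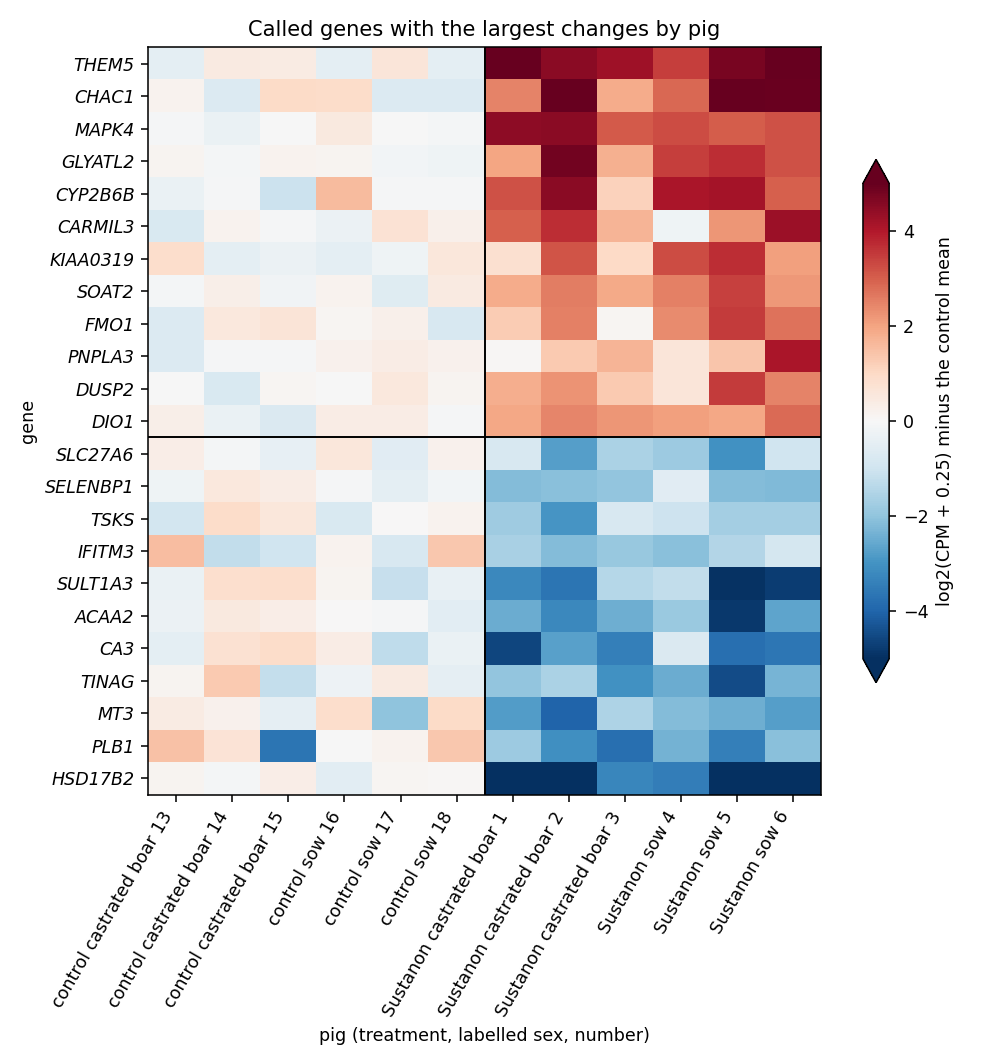
Rows are called genes with a symbol in the deposited table and a mean log2 CPM of at least 1. They are the 12 with the largest increases and 11 of the 12 with the largest decreases. Columns are the 12 pigs, and the colour is log2(CPM + 0.25) minus the mean of the controls. Pale cells among treated pigs include CARMIL3 in sow 4, FMO1 in castrated boar 3, PNPLA3 in castrated boar 1 and SELENBP1 in sow 4, and PLB1 in control castrated boar 15 is as low as in treated pigs.

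The study followed a panel of genes by real-time PCR, of which 15 were in the deposited table. All 15 were called, 12 higher and 3 lower (PLB1, TINAG and DUOX1), against 2.02% of all tested genes. The study chose this panel on these samples, so that the count is not independent evidence of its direction. Without the 3 controls at odds with their label 9 of the 15 were called. DHRS4, ITPR3, KCNB2, PPL, CACNA1H and ASB4 were not, at adjusted p in edgeR's quasi-likelihood test from 0.0548 to 0.085. DHRS4, a short-chain dehydrogenase of retinoids and steroids (7:75242121-75255594), stood at 362 to 511 CPM in controls, at 1600 to 2220 CPM in 5 treated pigs and at 481 CPM in sow 4 (log2 fold change 1.84 ± 0.27, adjusted p = 0.00136). ASB4, a substrate adaptor of ubiquitin ligases (2.14 ± 0.35, adjusted p = 0.00253), CACNA1H, a T-type calcium channel (2.06 ± 0.39, adjusted p = 0.00655), KCNB2, a voltage-gated potassium channel (1.53 ± 0.29, adjusted p = 0.00716), and ITPR3, a calcium release channel (1.16 ± 0.19, adjusted p = 0.00327), rose with no overlap. The calcium release channel ITPR3 was at 15.4 to 36.2 CPM in controls and 40.1 to 68.9 CPM in treated pigs. TERF2, a protein of telomeres, was at 45.6, 48.5 and 55.7 CPM in controls against 89, 117 and 160 CPM (1.28 ± 0.15, adjusted p = 0.00028). DHDH, a dihydrodiol dehydrogenase, rose by 1.04 ± 0.12 (adjusted p = 0.000249, and by 0.97 without control sow 17, below the fold threshold), the glycosyltransferase B3GNT8 by 1.19 ± 0.17 (adjusted p = 0.00125) and periplakin (PPL), a protein of cell junctions, by 1.35 ± 0.24 (adjusted p = 0.00426).

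Genes of steroid handling were called in both directions. Of 15 tested steroid dehydrogenases and reductases, DHRS4 and DHDH were called higher and HSD17B2 and SDR42E1 lower, 26.7% against 2.02% of all genes. An unadjusted p under 0.05 was found in 12 of the 15, against 20.3% of all genes. DHRS4 and DHDH are also members of the study's panel. This list and those below were chosen with earlier results of these data known, so that their shares describe the lists and are no test. SDR42E1, a short-chain dehydrogenase next to HSD17B2, fell from 32.9 CPM (range 28.5 to 56.6) to 14.5 CPM (range 8.57 to 31.1), a log2 fold change of -1.20 ± 0.28 (adjusted p = 0.0212, but 0.0507 without Sustanon sow 6 and 0.0534 without control castrated boar 13). The median log2 fold change of this list was 0.35, against 0.01 over all genes. Retinol dehydrogenase RDH16 (0.72 ± 0.13, adjusted p = 0.00449) and the peroxisomal HSD17B4 (0.73 ± 0.17, adjusted p = 0.0201) passed the p threshold and not the fold threshold. HSD17B11 (-1.15 ± 0.33, adjusted p = 0.0551) passed the fold threshold and missed the p threshold.

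Of 16 tested genes of cytochrome P450 and conjugation, AHR, CYP4A24 and SULT1E1 were called higher and SULT1B1 lower, 25% against 2.02% of all genes. SULT1E1, the oestrogen sulfotransferase (8:66811536-66838181), stood at 249, 313 and 456 CPM in controls and 470, 708 and 1400 CPM with Sustanon, with no overlap (1.30 ± 0.24, adjusted p = 0.00601). AHR, the receptor for dioxins and other aromatic ligands, rose from 45.3 CPM (range 34.4 to 63.3) to 133 CPM (range 89.5 to 187), a log2 fold change of 1.57 ± 0.19 (adjusted p = 0.000295). Its classical targets CYP1A1 (-1.22 ± 0.43, adjusted p = 0.118) and CYP1A2 (-1.58 ± 0.56, adjusted p = 0.114) had negative values that did not pass. CYP4A24, a fatty acid hydroxylase, was at 1.30 ± 0.32 (adjusted p = 0.0297) and lost its call without Sustanon castrated boar 2, sow 4 or sow 6 or control 13, 15 or 18, with adjusted p from 0.00929 to 0.0693 over the 12 fits without 1 library. SULT1B1, a sulfotransferase of thyroid hormones and phenols, was at -1.18 ± 0.27 (adjusted p = 0.0166). Of 4 tested flavin-containing monooxygenases FMO1 rose and FMO5 fell, from 850 CPM (range 554 to 1010) to 228 CPM (range 174 to 451), a log2 fold change of -1.58 ± 0.25 with no overlap (adjusted p = 0.00211).

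No steroid receptor gene met both parts of the call rule. Of 11 tested steroid receptors and cofactors, FKBP5 alone was called (9.09% against 2.02% of all genes). A share set by 1 called gene, here and in the lists below, is no result about the list. FKBP5, a co-chaperone and a classical target of steroid hormone receptors (7:31441764-31550704), rose from 170 CPM (range 119 to 301) to 411 CPM (range 232 to 571), a log2 fold change of 1.12 ± 0.25 (adjusted p = 0.0164), with 5 of 6 treated pigs above every control. Without sow 5 it was at 0.99, below the fold threshold. The oestrogen receptor ESR1 had a log2 fold change of -0.92 ± 0.18 (adjusted p = 0.00921), which missed the fold threshold, as did the chaperone HSP90AB1 (-0.45 ± 0.11, adjusted p = 0.032). Of 6 tested genes of the growth hormone and IGF axis, edgeR called 0 and DESeq2 0, and 3 had an unadjusted p under 0.05, against 2.02% and 20.3% of all genes. With so few genes 0 calls is no result about the list. IGFALS, the acid-labile subunit that binds circulating IGF, was at 0.81 ± 0.22 (adjusted p = 0.0479).

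Genes of lipid metabolism were called in both directions. Fatty acid oxidation had 18 genes in the test and 3 calls (16.7% against 2.02% of all genes), among them ACAA2 as lower and CROT as higher, with a list median of -0.10. CROT, the peroxisomal carnitine octanoyltransferase (9:93263606-93308150), stood at 175, 197 and 348 CPM in controls and 343, 873 and 1420 CPM with Sustanon (1.88 ± 0.34, adjusted p = 0.00523). Castrated boar 3 was the treated pig that fell below the highest control. Of 18 tested genes of fatty acid and triglyceride synthesis PNPLA3 was higher and LPIN1, a phosphatidate phosphatase, was lower (-1.19 ± 0.33, adjusted p = 0.0481), or 2 of 18 against 2.02% of all genes. LPIN1 was called in 4 of 12 fits without 1 library (Sustanon castrated boar 3, sow 5, control 13 or control 18), with adjusted p from 0.0211 to 0.102 over the 12. Of 17 tested genes of cholesterol synthesis and uptake, edgeR and DESeq2 called 0, which at 2.02% over all genes is no result about so short a list, and 5 had an unadjusted p under 0.05, against 20.3% of all genes.

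Among 14 tested lipoprotein genes ABCA1 was higher and ANGPTL8 lower, 14.3% against 2.02% of all genes. ABCA1, which exports cholesterol to nascent high-density lipoprotein (1:246144277-246278492), rose from 48.6 CPM (range 37.3 to 77.1) to 141 CPM (range 111 to 195), a log2 fold change of 1.52 ± 0.19 with no overlap (adjusted p = 0.000486). ANGPTL8, an inhibitor of lipoprotein lipase, was at -1.14 ± 0.30 (adjusted p = 0.0403), was called in 4 of 12 fits without 1 library (Sustanon castrated boar 1, sow 4, control 13 or control 18; adjusted p 0.0164 to 0.0864), and was at -0.85 (adjusted p = 0.236) without the 3 controls at odds with their label. Of 12 tested genes of bile acid synthesis and transport SLC10A1 and NR0B2 were higher, 16.7% of that list. SLC10A1, the sodium-dependent bile acid importer, was at 172 to 333 CPM in controls and 454 to 649 CPM with Sustanon (1.16 ± 0.16, adjusted p = 0.000825). NR0B2, a nuclear repressor induced by bile acids, was at 1.04 ± 0.24 (adjusted p = 0.0201) and was below the fold threshold without Sustanon sow 4 or 5 or control sow 17 or 18, and as low as 0.83. CYP7A1, the rate-limiting enzyme of bile acid synthesis, was at -0.74 ± 0.54 (adjusted p = 0.497).

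**Figure D4:**
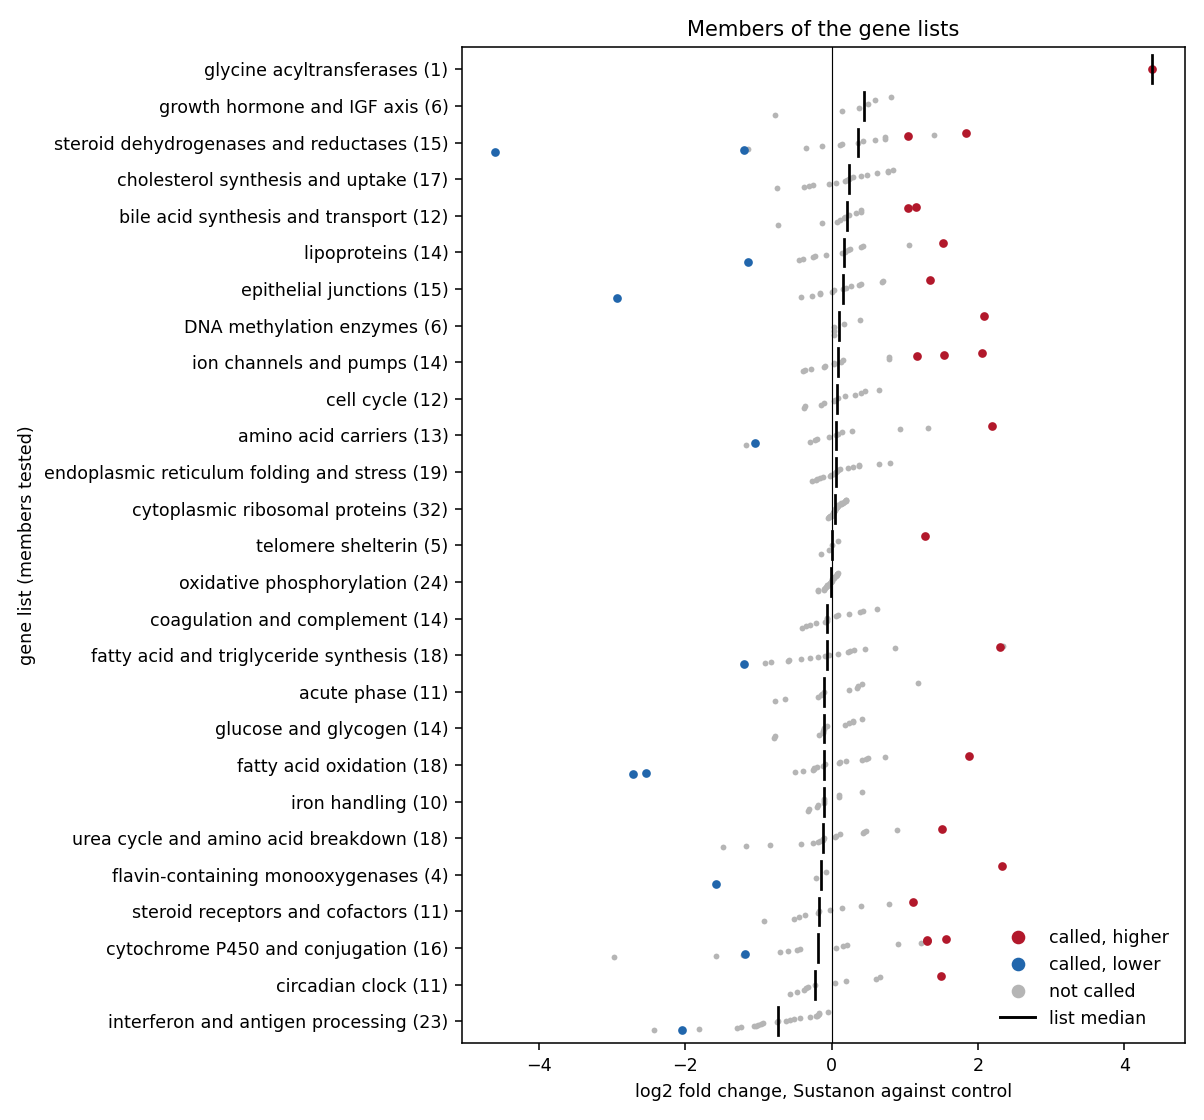
Each point is a tested gene of the list named on the y axis, placed by its log2 fold change of Sustanon against control, red or blue where called and grey where not, with the list median as a black bar and the number tested in parentheses. All 23 interferon genes lie below 0, while the 32 ribosomal and 24 oxidative phosphorylation genes lie close to 0.

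Single called genes stood in the lists of DNA methylation enzymes, amino acid breakdown and clock genes, and 2 in that of amino acid carriers (15.4% against 2.02% of all genes). TET3, an enzyme that oxidises methylated cytosine (3:68918896-69020406), was the only one called of 6 tested DNA methylation enzymes. It stood at 37.9, 43 and 46.8 CPM in controls and at 78.9, 178 and 280 CPM with Sustanon, a log2 fold change of 2.09 ± 0.26 (adjusted p = 0.00044), while TET2 was at 0.04 ± 0.32 (adjusted p = 0.965). BCKDHA, a subunit of the dehydrogenase that degrades branched-chain amino acids (6:49381995-49398745), was the 1 called gene of 18 in the urea cycle and amino acid breakdown. It rose from 211 CPM (range 177 to 277) to 618 CPM (range 312 to 850), a log2 fold change of 1.50 ± 0.20 (adjusted p = 0.000795), whereas its partner subunit BCKDHB was at -0.11 ± 0.15 (adjusted p = 0.764). Arginase ARG1 passed the p threshold alone (-0.85 ± 0.15, adjusted p = 0.00411). Of 11 tested clock genes RORA was higher (1.50 ± 0.24, adjusted p = 0.00204). Among 13 tested amino acid carriers the glutamate carrier SLC1A2 was higher (2.19 ± 0.48, adjusted p = 0.0157) and the neutral amino acid carrier SLC1A4 lower (-1.05 ± 0.18, adjusted p = 0.00405). SLC1A4 was below the fold threshold without Sustanon castrated boar 1 (-0.96), sow 5 (-0.97) or control 14 (-0.95).

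Lists for other liver functions are given by their counts, against 2.02% called and 20.3% at an unadjusted p under 0.05 over all genes, a background at which 0 calls in lists this short is no result about them. Of 14 genes each of glucose and glycogen metabolism and of coagulation and complement, 11 of the acute phase and 10 of iron handling, edgeR called 0, and 3, 4, 3 and 1 had an unadjusted p under 0.05. DESeq2 called 1 acute phase gene and 0 in the other 3 lists. Of 24 genes of oxidative phosphorylation and 32 cytoplasmic ribosomal proteins, edgeR and DESeq2 called 0 and none had an unadjusted p under 0.05. Of 19 endoplasmic reticulum genes and 12 cell cycle genes, both tools called 0, with 4 and 2 at an unadjusted p under 0.05.

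The interferon and antigen processing list had 23 tested members. All 23 tested members had a negative log2 fold change, with a median of -0.73 against 0.01 over all genes, and 15 had an unadjusted p under 0.05, against 20.3% of all genes, but IFITM3 alone was called (4.35% against 2.02%). DESeq2 called 4 and limma 0. IFITM3, a membrane protein that blocks entry of viruses (2:128658-129736), was at 126, 251 and 856 CPM in controls and 65.3, 86.7 and 161 CPM with Sustanon (-2.04 ± 0.47, adjusted p = 0.0189). Its high values came from controls castrated boar 13 (856 CPM) and sow 18 (743 CPM), and the other controls were at 126 to 332 CPM. ISG15, a ubiquitin-like protein (-2.43 ± 0.76, adjusted p = 0.0777), and RSAD2, an antiviral enzyme (-1.82 ± 0.57, adjusted p = 0.0756), did not pass. The summed level of the list was 4430 to 10100 TPM with Sustanon and 5610 to 15400 TPM in controls, highest in the same controls 13 (15100 TPM) and 18 (15400 TPM). The median of the list stayed between -0.85 and -0.60 when single libraries were left out. It was -0.69 without the 3 controls at odds with their label. None of these fits left out both controls 13 and 18, so that the part of these libraries in the median was not tested.

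Markers of liver cell types were examined in the same way, in bulk tissue in which fewer cells of a type and less RNA per cell cannot be told apart. Of 7 hepatocyte, 5 Kupffer cell and macrophage, 3 bile duct and 4 endothelial marker genes tested, edgeR called 0, with 1 bile duct gene at an unadjusted p under 0.05. Over all genes these shares were 2.02% and 20.3%, so that 0 calls in such short lists is no result about the markers. All 7 hepatocyte markers had positive values (median 0.183) and all 3 bile duct markers negative ones (median -0.175). Of the macrophage markers 3 of 5 were negative (median -0.0812), and of the endothelial ones 3 of 4 (median -0.0946). All 5 stellate and stromal markers had positive values (median 0.39, 0 called, 2 at an unadjusted p under 0.05), and their summed level was 108 to 191 TPM with Sustanon and 62.8 to 143 TPM in controls. All 4 red blood cell markers had negative values (median -0.73, 0 called, 1 at an unadjusted p under 0.05), with sums of 1450 to 5840 TPM and 2600 to 8310 TPM. Of 6 lymphocyte markers 5 had negative values (median -0.39), and 1 was called, 16.7% against 2.02% of all genes. This was the B cell gene MS4A1, called lower (-1.14 ± 0.31, adjusted p = 0.0424). Its call was kept in 1 of 12 fits without a library (control sow 16), with adjusted p from 0.0107 to 0.0928. CD79A, also a B cell gene, was at 0.07 ± 0.09 (adjusted p = 0.751). DESeq2 called 0 markers of hepatocytes, macrophages, bile duct, endothelium, stroma and red blood cells. The part of these differences in the results was not tested.

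Without the 3 controls at odds with their label, 7 of the 19 called list members outside the panel and the leading genes were still called, namely SLC10A1, ABCA1, FMO5, TET3, CROT, BCKDHA and AHR, with adjusted p in edgeR's quasi-likelihood test from 0.00967 to 0.047. The other 12 kept their direction at adjusted p from 0.0548, as for RORA, SULT1E1, SLC1A4 and MS4A1, to 0.236 for ANGPTL8. IFITM3 kept its direction and was not called in that fit (adjusted p = 0.085).

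The direction of change was compared between castrated boars and sows. Of the 163 called genes with a value in each sex as labelled, 163 had the same sign in both, which is a description since both sexes chose the genes. THEM5 was at 6.12 in castrated boars and 6.21 in sows, HSD17B2 at -4.69 and -4.52, and DIO1 at 2.38 and 2.07. A test of the difference itself, the interaction of treatment and sex, called 0 of 8408 genes (0%) in edgeR, with a smallest adjusted p of 0.999 and 279 genes (3.32%) at an unadjusted p under 0.05. DESeq2 and limma also called 0, as did edgeR without the 3 controls at odds with their label. FMO1 rose by 1.34 in castrated boars and by 3.03 in sows, a difference of -1.70 ± 0.77 (castrated boars minus sows, adjusted p = 0.999). The genes with the smallest p were CRELD2, TGFB3, RAB27B, TLR1 and SOX6, none of them called. The test has 3 pigs per cell and uses the labelled sex, which the Y-linked counts of 3 libraries and the header code of Sustanon sow 6 go against, and a p that misses the threshold does not show that they are absent.

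Treated pigs were not equal in the strength of the change. Among the 164 called genes, Sustanon castrated boar 3 lay within the control range or beyond it in 33 genes and was the treated pig nearest to the controls in 70. Sow 4 did so in 21 genes, castrated boar 1 in 15, sow 6 in 11, castrated boar 2 in 8 and sow 5 in 7. Among controls, sow 16 lay in the treated range in 31 genes and sow 17 in 25, and the other 4 in 14 to 19. Since the genes were called on these same libraries, the counts describe the pigs and are no test.

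Sustanon was also compared directly with Myodin, another anabolic steroid preparation, in castrated boars and sows. With labelled sex in the model 77 of 8263 genes (0.932%) were called, 50 (0.605%) higher and 27 (0.327%) lower with Sustanon, and 1787 (21.6%) had an unadjusted p under 0.05. Both comparisons share the Sustanon libraries. Of the 161 genes called against control and tested here, 50 were called in the same direction and 0 in the opposite direction. Shared libraries alone favour the same direction, and the number to be found without a common response was not computed. CYP2B6B was at 23.8 to 242 CPM with Sustanon and 4.77 to 19.1 CPM with Myodin, a log2 fold change of 3.69 ± 0.56 (adjusted p = 0.0154). GLYATL2 (3.43 ± 0.69, adjusted p = 0.0291) and FMO1 (2.35 ± 0.42, adjusted p = 0.024) were likewise higher with Sustanon. Larger increases than that of FMO1 were also seen in ARMC12 (3.10), a gene beside FKBP5, and ZBTB16 (2.39), a transcription factor induced by steroid hormones. FKBP5 itself was 2.10 ± 0.37 higher with Sustanon (adjusted p = 0.0219). TINAG (-2.91 ± 0.52, adjusted p = 0.0236), DUOXA2 (-2.87), the maturation factor of a sister oxidase of DUOX1, ACAA2 (-2.08 ± 0.41, adjusted p = 0.0289), SLC1A4 (-1.94 ± 0.29, adjusted p = 0.0154) and SELENBP1 (-1.67 ± 0.27, adjusted p = 0.018) were lower.

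DIO1 (0.72 ± 0.29, adjusted p = 0.18), TERF2 (0.53 ± 0.18, adjusted p = 0.12), DHDH (0.60 ± 0.17, adjusted p = 0.0789) and HSD17B2 (-2.57 ± 0.64, adjusted p = 0.0602) were not called between the preparations. THEM5 did not pass either (1.98 ± 0.49, adjusted p = 0.0602), and in CPM scaled over all 24 libraries it stood at 0.618 to 4.78 in the 5 Myodin pigs. This was above the 0 to 0.283 CPM of the controls, while the Sustanon pigs had 3.51 to 17.6 CPM. The 2 preparations differed in dose as well as in steroid. Of the 77 genes called between the preparations, 14, 11 and 12 were still called without Myodin sow 10, 11 or 12. The calls named for this comparison may therefore not hold in every fit. The number of called genes rested on single libraries. It was 11, 14 and 13 without Myodin sows 11, 10 and 12, 34, 44 and 45 without Sustanon sows 5, 4 and 6, 38 without Sustanon castrated boar 2, 117 without castrated boar 1 and 134 without castrated boar 3.

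In uncastrated boars, which have testicular testosterone of their own, the levels of 2 leading genes were already high without treatment. THEM5 stood at 18 and 24.7 CPM in the 2 untreated boars, or 180 and 279 counts, against 0 to 0.279 CPM in untreated castrated boars and sows. With Sustanon it was at 13.6 and 15.3 CPM in boars and 3.58 to 17.8 CPM in castrated boars and sows. MAPK4 was at 7 and 11.9 CPM in untreated boars and 7.25 and 10.9 CPM in treated boars, against 0.114 to 0.402 and 3.49 to 10.2 CPM without testes. The interaction of Sustanon with the presence of testes was significant in 4 of 8661 genes (0.0462%), 1 positive (0.0115%) and 3 negative (0.0346%), with 730 genes (8.43%) at an unadjusted p under 0.05. The effect in boars minus that in the other pigs was -6.74 ± 0.85 for THEM5 (adjusted p = 0.0022) and -4.74 ± 0.69 for MAPK4 (adjusted p = 0.00884). In edgeR, THEM5 was not called without Sustanon boar 19 (adjusted p = 0.0503) or without the 3 controls at odds with their label (0.0569). MAPK4 was not called without Sustanon boar 19 (0.153), Sustanon boar 20 (0.0549), control boar 25 (0.0963) or those 3 controls (0.0946), nor by limma (0.205).

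The gene without a symbol ENSSSCG00000038557 gave the smallest p, with a difference of -4.80 ± 0.43 (adjusted p = 4.42e-05). It was at 41.5 and 48.3 CPM in untreated boars and at 2.37 and 4.49 CPM in treated boars. In castrated boars and sows it was at 0.7 to 1.48 CPM without and 1.23 to 2.91 CPM with treatment. MPDZ, a scaffold protein of cell junctions, went the other way, with a difference of 2.13 ± 0.33 (adjusted p = 0.013). It stood at 167 to 222 CPM in untreated and 82.2 to 176 CPM in treated castrated boars and sows, and at 56.3 and 58.9 CPM in untreated and 123 and 178 CPM in treated boars. TNFAIP8L1 (-1.88, adjusted p = 0.0556) and PEX5 (-1.16, adjusted p = 0.101) had the next smallest p and were not called. MPDZ was not called without Sustanon boar 19 (adjusted p = 0.153 in edgeR), control boar 25 (0.158), control boar 27 (0.241) or the 3 controls (0.0954). Each boar group held 2 pigs, so that a fit without a boar takes the remaining 1 to vary like the other groups. The number of called genes was 2 without Sustanon boar 19 or control boar 25, 8 without Sustanon sow 5, 10 without the library labelled control sow 16, and 1 without the 3 controls at odds with their label.

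**Figure D5:**
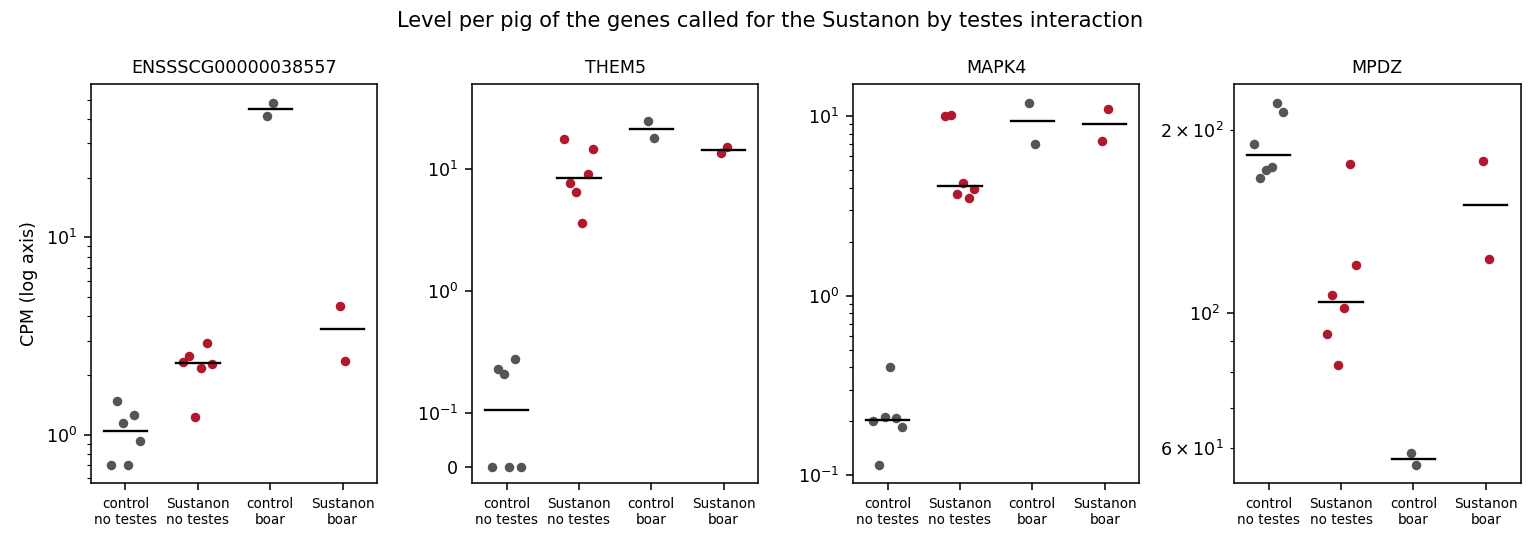
Each point is the CPM of 1 pig on a log axis (linear below 0.1 CPM for THEM5), in 6 untreated and 6 treated pigs without testes (castrated boars and sows) and in 2 untreated and 2 treated uncastrated boars, with bars at the medians. THEM5 and MAPK4 are low only in the untreated pigs without testes, and ENSSSCG00000038557 is high only in the 2 untreated boars.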

How the data were processed

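Liver RNAseq of 24 pigs was used, 1 library per pig. The authors made stranded poly-A libraries, sequenced them in paired ends and used Skewer for trimming, and per the submitters' processing notes STAR 2.5 for alignment, with Sscrofa11.1 as the build. They deposited unnormalized counts for 13463 genes and the same data as log2(TPM + 1). The counting tool is not given in the sources used here. Counts were tested by the two-sided quasi-likelihood test of edgeR 4.0.16 (R 4.3.3) after TMM scaling and filterByExpr on treatment, with Benjamini-Hochberg adjusted p over all tested genes. A called gene had an adjusted p under 0.05 and changed by 1 or more on the log2 scale, while interactions needed the adjusted p alone. CPM were scaled by TMM. A log2 fold change is given ± its SE. Treatment by sex, Sustanon by testes and Sustanon against Myodin (labelled sex as covariate) were fitted on 12, 16 and 11 libraries. Alternatives were DESeq2 1.42.0, limma 3.58.1 on the deposited log2 values (pseudocount 1), RLE, no filter, prior counts, one sex alone, all 24 libraries and libraries left out.

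Named genes were the 12 called genes with the largest increases and the 12 with the largest decreases (symbol in the file, mean log2 CPM of at least 1), the study's panel and called members of 28 pathway and 9 marker lists, and up to 5 per direction in the other comparisons. Some of these are not reported here. Genes named beyond these were chosen after their values were seen. Members and lists were chosen with earlier results of these data known. Symbols came from the deposited table, which has none for 3779 genes, and positions from the RefSeq table of Sscrofa11.1, mostly by symbol. Primers came from the study's supplement. The tests were tried on simulated data.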

Additional observations from a re-analysis of the deposited data

Results flagged for a closer look

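In 106 groups of 6 pigs (53 named genes, 2 treatments), 6 had a pig whose gap to the nearest other one took an unusually large part of the group's range on the log2 CPM scale. Chance alone gives about 5% of groups. The number found is near that share, so that the pigs below are listed as a description. The library labelled control castrated boar 15 was low for PLB1 (gap 0.72 of the range) and for DHRS4 (0.789). Sustanon sow 4 was nearest to the controls for SELENBP1 (0.847) and DHRS4 (0.784). Sustanon castrated boar 3 was nearest to the controls for DHDH (0.704) and BCKDHA (0.628).

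Between pigs without testes and uncastrated boars, 4 genes differed in their response to Sustanon by a test of the difference itself. The response in boars minus that in the others was -6.74 for THEM5, -4.74 for MAPK4, -4.8 for ENSSSCG00000038557 and 2.13 for MPDZ on the log2 scale. Without Sustanon boar 19 or without the 3 controls at odds with their label, ENSSSCG00000038557 was the 1 of these 4 still called. THEM5, MAPK4 and MPDZ had adjusted p in edgeR of 0.0503, 0.153 and 0.153 without boar 19 and of 0.0569, 0.0946 and 0.0954 without the controls. MPDZ was also not called without control boar 25 (0.158) or 27 (0.241), and MAPK4 without Sustanon boar 20 or control boar 25.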

How the results depend on the processing

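The 164 called genes of the main comparison became 249 with DESeq2, 250 with unadjusted p, 480 without the fold threshold, 27 in castrated boars alone, 57 in sows alone and 54 without the 3 controls at odds with their label. With RLE (164), no filter (188), limma (121), labelled sex as covariate (159), prior counts of 0.5 and 5 (163 and 155) and all 24 libraries (178) the number stayed within 1.5 times, and leaving out 1 library gave 143 to 209. The treatment by sex interaction gave 0 to 1 called genes with 1 library left out (1 without the library labelled control sow 18). Sustanon against Myodin gave 164 with DESeq2 and 11 to 134 with 1 library left out. For the sex interaction limma moved the median over all genes to 0.159. The Sustanon by testes interaction gave 63 with DESeq2, 7 with limma, 1 without the 3 controls, and 2 to 10 with 1 library left out. The cause of these differences was not tested, other than that fits on fewer pigs have fewer samples. For the 53 named genes, 1144 of 1324 alternative values kept direction and call, 180 were no longer called and 0 reversed. THEM5, MAPK4, SOAT2, DIO1 and TERF2 were called in all 25 alternatives. The settings without the fold threshold and with unadjusted p used the main fit under a looser rule. No call could be lost or reversed in those settings, and they are counted in these numbers. No paired analysis was possible because every pig has its own number and the groups share none. Depth limits genes with few counts, such as THEM5, CHAC1, MAPK4, GLYATL2, MT3 and DUOX1.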

Other observations

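Several called genes lay close together on a chromosome. Of the 138 called genes with a position, 8 pairs next in order among the called genes lay within 100 kb. Genes not called were passed over in forming these pairs. In 8 of the 8 pairs both genes changed in the same direction. SDR42E1 was paired with both HSD17B2 and PLCG2, so that the pairs are not all separate. Among all tested genes, 53.6% of 5227 neighbouring pairs had the same sign. Most of those genes were not called, so that this share is not a like background for called pairs. Higher with Sustanon were CARMIL3 and DHRS4, 877 bases apart on chromosome 7 (3.11 and 1.84), BCKDHA and B3GNT8, 375 bases apart on chromosome 6 (1.50 and 1.19), ENO2 and LRRC23, 230 bases apart on chromosome 5 (1.69 and 1.54), PARVB and PNPLA3 (1.33 and 2.30), and FKBP5 and ARMC12 (1.12 and 1.84). Lower were DUOX1 and DUOXA2, 13546 bases apart on chromosome 1 (-3.43 and -2.24), and HSD17B2, SDR42E1 and PLCG2 in a row on chromosome 6 (-4.60, -1.20 and -1.37). The pairs were chosen after their values were seen, and reads shared across the shortest gaps were not examined.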
